A study of Homo sapiens with 3 samples.

Results

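The 7 heterogeneous nuclear ribonucleoprotein (HNRNP) genes examined in a HyperTRIBE experiment were HNRNPU, HNRNPA2B1, HNRNPA1, HNRNPK, HNRNPC, HNRNPM and HNRNPH1. All entries named for these genes were taken from the 3 deposited lists of A-to-G positions, with no use of the values, which gave 7 of the 4245 listed genes. After entries that repeat a position were joined, they held 170 of 16820 distinct positions. HyperTRIBE fuses an RNA-binding protein to a hyperactive ADAR catalytic domain, which turns A into inosine, read as G, in RNA near the protein. The cells were THP-1, a human monocytic leukemia line, transduced with pGK-GFP retrovirus whose supernatants were made in 293T cells, and total RNA was taken at day 7. The groups were DDX41 fused to the domain (DDX41-ADARcd), the domain alone (ADARcd alone) and the retrovirus with no transgene (empty vector), with 1 library each. DDX41 is a DEAD-box RNA helicase of the nucleus. With no replicate in any group, every difference is one between libraries and has no replicate check.

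HNRNP proteins coat nascent transcripts in the nucleus and take part in splicing, export and stability of mRNA, and they are abundant in dividing cells. Many of them regulate the splicing of their own mRNA or that of another member. The measurements here concern the mRNAs of these genes and not their proteins.

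HNRNP genes held 67 of 10407 positions in the list of DDX41-ADARcd against ADARcd alone. With the empty vector as control they held 57 of 3516 with the fusion and 103 of 6413 with ADARcd alone. A position was listed where the first library had 1 or more edited reads and the second had 0 among 10 or more. Library totals are not given, so depth is known only at the listed positions. At the HNRNP positions of the first of these lists DDX41-ADARcd had a median depth of 249 reads, against 348 with ADARcd alone. In the second DDX41-ADARcd had 287, against 32 with empty vector, and in the third ADARcd alone had 452, against 34 with empty vector. The transgenes could be followed at listed positions: over 23 positions the DDX41 gene had a median depth of 236 in the fusion library, against 32 with ADARcd alone. Over 5 positions ADARB1, a human ADAR, had 223 in the fusion library, against 909 with ADARcd alone. Of the monocytic markers 11 of 14 had a listed position (CD33, MPO and CD14 had none), against 0 of 12 markers of other blood cells and 0 of 4 epithelial markers of packaging cells.

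Some of the positions with more than 1 edited read are shown first, with 10 bases on either side as read from GENCODE 29 transcripts of GRCh38, 5′ to 3′, T standing for U and the edited A in capitals. The first 3 are among the 4 HNRNP positions with 3 or more edited reads, and all of these were reads of ADARcd alone. Where a window crosses an exon junction, only the edited position is given.
HNRNPA1, edited A at position 54281797 of chromosome 12, plus strand, exon 3: actgtgtggtAatgagagatc
HNRNPU, chr1:244853816-244853836, minus strand, 3′ UTR: aagatagagaAgatggagtgt
HNRNPU, edited A at position 244855905 of chromosome 1, minus strand, exon 11: tcagaggaggAgcccctggga
The next 5 are, for each gene that had one, the position with 2 edited reads and the highest level in DDX41-ADARcd.
HNRNPU, chr1:244854870-244854890, minus strand: cagggattgaAgtgtttataa
HNRNPH1, chr5:179621203-179621223, minus strand: tagttacagtAaataaagcat
HNRNPC, chr14:21210927-21210947, minus strand: tatggtttttAtcaactgtct
HNRNPA2B1, chr7:26196403-26196423, minus strand: aagtaactttAgaggaggatc
HNRNPA1, chr12:54281799-54281819, plus strand: tgagagatccAaacaccaagc

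All positions are on GRCh38. HNRNPU spans bases 244840638 to 244864560 of chromosome 1 (minus strand), HNRNPA2B1 bases 26173057 to 26201529 of chromosome 7 (minus) and HNRNPA1 bases 54280193 to 54287088 of chromosome 12 (plus). HNRNPK spans 83968083 to 83980616 of chromosome 9 (minus), HNRNPC 21209136 to 21269494 of chromosome 14 (minus), HNRNPM 8444767 to 8489114 of chromosome 19 (plus) and HNRNPH1 179614178 to 179634784 of chromosome 5 (minus).

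Against ADARcd alone, DDX41-ADARcd had single edited reads scattered over all 7 mRNAs, with at most 2 at any position and no position past the test. HNRNPU, a nuclear scaffold protein that binds RNA and chromatin, led with 27 positions and 32 edited reads, which placed it 14th of 4036 genes by number of positions. HNRNPA1 had 10 positions with 12 edited reads, HNRNPA2B1 9 with 11, HNRNPH1 9 with 11, HNRNPK 5 with 5, HNRNPC 4 with 5 and HNRNPM 3 with 3. The median gene of that list had 1 position. A two-sided Fisher's exact test of edited and other reads, with Benjamini-Hochberg adjustment over all positions tested, passed at 26 of 9227 positions (0.282%), all of them lower in DDX41-ADARcd. A position of the deposited list has 0 edited reads in ADARcd alone and cannot come out lower. The 26 thus lie among 400 positions added to the test, which both transduced libraries had against the empty vector. Of the HNRNP positions 0 of 70 passed. An unadjusted p under 0.05 was seen at 1 of them, lower in DDX41-ADARcd, and at 79 of 9227 over all positions. Only 3 of the 70 were among the added ones and could come out lower, so 0 of 70 and 0.282% are not like shares. Of the 103 HNRNP positions that ADARcd alone had against the empty vector, only these 3 entered this test. The others were left out by the choice of positions, among them 54281797 in HNRNPA1 with 12 of 700 reads edited in ADARcd alone. The test thus cannot show whether they differ between the transduced libraries. The test compares the DDX41-ADARcd and ADARcd alone libraries, not the conditions. At the median HNRNP depth an unadjusted p under 0.05 needed 4 edited reads, a level of 1.61%, so smaller differences were not detectable.

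The levels at these 67 positions were low and rested mostly on single reads. Their median level, given as the percentage of reads edited, was 0.439% (95% interval 0.368 to 0.532), against 3.70% over all 10407 positions of that list. The median depth in DDX41-ADARcd was 249 reads at the HNRNP positions and 30 over all, and a single edited read makes a lower level where depth is higher. Levels over 1% were seen at 15 of the HNRNP positions (22.4%), against 77.8% of all. A single edited read was the whole evidence at 82.1% of the HNRNP positions (70.8 to 90.4) and at 83.9% of all positions. Intervals and limits in these data cover counting error only, since PCR reads without molecular identifiers are not independent molecules.

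The 12 HNRNP positions with 2 edited reads in DDX41-ADARcd lay in 5 genes: 5 in HNRNPU, 2 each in HNRNPA1, HNRNPA2B1 and HNRNPH1, and 1 in HNRNPC. The highest level was at 244854880 in HNRNPU, with 2 of 10 reads in DDX41-ADARcd (20%, 2.52 to 55.6) and 0 of 20 in ADARcd alone. At 179621213 in HNRNPH1, which encodes a binder of G-rich splicing elements, 2 of 16 reads were edited in DDX41-ADARcd (12.5%, 1.55 to 38.3) and 0 of 32 in ADARcd alone. Both rest on few reads, and their intervals are wide. In HNRNPC, whose protein binds U-rich stretches of nascent RNA, the 3′ UTR position 21210937 had 2 of 66 reads in DDX41-ADARcd (3.03%, 0.369 to 10.5) and 0 of 96 in ADARcd alone. In HNRNPA2B1, whose protein takes part in splicing and RNA transport, 26196413 in exon 7 had 2 of 393 reads in DDX41-ADARcd (0.509%, 0.0617 to 1.83), 0 of 410 in ADARcd alone and 0 of 33 in the empty vector. The adjusted p of Fisher's exact test between DDX41-ADARcd and ADARcd alone was 0.56 at each of these positions. HNRNPK, a KH-domain protein that binds C-rich RNA, and HNRNPM, a splicing regulator, had no position with more than 1 edited read in DDX41-ADARcd. Their highest levels were 1 of 84 reads at 83969146 in HNRNPK, against 0 of 136 in ADARcd alone, and 1 of 88 at 8486070 in HNRNPM, against 0 of 119 in ADARcd alone.

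Among the genes, the median level was highest where the depth was lowest. In DDX41-ADARcd against ADARcd alone it was 1.35% in HNRNPH1, 1.11% in HNRNPM, 0.490% in HNRNPK, 0.430% in HNRNPC, 0.372% in HNRNPU, 0.348% in HNRNPA2B1 and 0.303% in HNRNPA1. The median depths of DDX41-ADARcd at these positions, for the genes in that order, were 81, 90, 204, 237, 314, 388 and 445 reads. The order of the levels was thus the reverse of the order of the depths, and it was the reverse in the list of the fusion against the empty vector too.

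**Figure D1:**
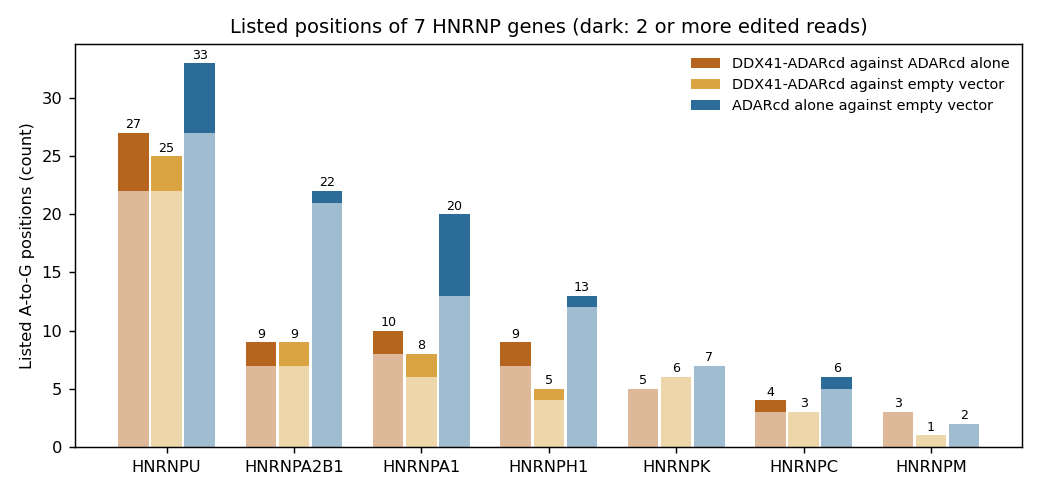
Number of listed A-to-G positions (y axis, count) of each HNRNP gene in the lists of DDX41-ADARcd against ADARcd alone, DDX41-ADARcd against the empty vector and ADARcd alone against the empty vector, with 1 library per group. Dark parts are positions with 2 or more edited reads; HNRNPU has most positions in each list (27, 25 and 33).

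The authors typed 4 of the 67 positions as intronic (5.97%, against 8.03% of that list), 1 in HNRNPU and 3 in HNRNPH1. They had between 10 and 18 reads in DDX41-ADARcd, and levels of 5.56 to 20%. The other 63 positions, typed as exonic, had a median level of 0.426% and a highest of 6.90%, at 244852441 in the 3′ UTR of HNRNPU (2 of 29 reads in DDX41-ADARcd, 0 of 46 in ADARcd alone and 0 of 14 in the empty vector). The intronic ones hold the 3 highest levels of the HNRNP positions, at the lowest depths. In GENCODE 29 the HNRNPU position lies in a 3′ UTR and one of the HNRNPH1 positions in a non-coding exon of other transcripts, while the other 2 are in introns. In both lists against the empty vector 0 HNRNP positions were typed as intronic.

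Against the empty vector, DDX41-ADARcd had 57 HNRNP positions with 65 edited reads, 25 of the positions in HNRNPU. HNRNPA2B1 had 9, HNRNPA1 8, HNRNPK 6, HNRNPH1 5, HNRNPC 3 and HNRNPM 1, and HNRNPU ranked 10th of 957 genes. Of these positions 54 also stood in the list against ADARcd alone (94.7% of 57 and 80.6% of 67, against 88.6% and 29.9% over all positions of those lists), so the counts come mostly from the same reads of DDX41-ADARcd. The median level was 0.372% (0.318 to 0.441), against 0.515% over all 3516 positions. Fisher's exact test passed at 0 of 3512 positions (0%), with an unadjusted p under 0.05 at 3, and at 0 of 57 HNRNP positions by either measure. The empty vector gave a median of 32 reads at the HNRNP positions, where 0 edited reads allow up to 9.38%, and an unadjusted p under 0.05 would have needed 34 edited reads of 287, or 11.8%. No difference of the size of the listed levels was detectable there. The highest level of HNRNPC in this list was 1 of 205 reads in DDX41-ADARcd (0.488%) at 21213110, against 0 of 53 in the empty vector. That of HNRNPM was 1 of 110 in DDX41-ADARcd (0.909%) at 8473681, against 0 of 23 in the empty vector. That of HNRNPH1 was 2 of 148 in DDX41-ADARcd (1.35%, 0.164 to 4.80) at 179620943, against 0 of 15 in the empty vector. Each of these levels is below what 0 edited reads allow at the depth of the empty vector.

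ADARcd alone, set against the same empty vector library, had the most HNRNP positions, 103 with 139 edited reads. As a share of the list this was 1.61%, against 1.62% for DDX41-ADARcd with the same control. HNRNPU had 33 of the 103 positions, HNRNPA2B1 22, HNRNPA1 20, HNRNPH1 13, HNRNPK 7, HNRNPC 6 and HNRNPM 2. Per kilobase of a RefSeq-matched transcript this came to 6.0 positions in HNRNPA2B1, 5.70 in HNRNPH1, 4.85 in HNRNPA1, 4.81 in HNRNPU, 3.36 in HNRNPC, 2.38 in HNRNPK and 0.779 in HNRNPM. In ADARcd alone HNRNPU thus led by number and not by density, on a transcript of 6858 bases. In DDX41-ADARcd it led by density too. Against ADARcd alone the fusion had 3.79 positions per kilobase in HNRNPU, with HNRNPH1 next at 2.63. Against the empty vector the fusion had 3.65 in HNRNPU, with HNRNPA2B1 next at 2.46. The density counts the whole transcript, also where no position was listed. The last position of ADARcd alone was at base 3332 in HNRNPU, at 1659 of 3664 in HNRNPA2B1 and at 1547 of 2279 in HNRNPH1. By number HNRNPU ranked 15th of 1258 genes, with HNRNPA2B1 at 44 and HNRNPA1 at 49. The median level was 0.259% (0.217 to 0.313), against 0.434% over all 6413 positions, with 84.5% of the HNRNP positions resting on a single edited read (76.0 to 90.9) against 74.8% of all. Fisher's exact test passed at 13 of 6412 positions (0.203%), and at 0 of 103 HNRNP positions, with 0 at an unadjusted p under 0.05. An unadjusted p under 0.05 needed 48 edited reads of 452, or 10.6%, at the median HNRNP depth.

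**Figure D2:**
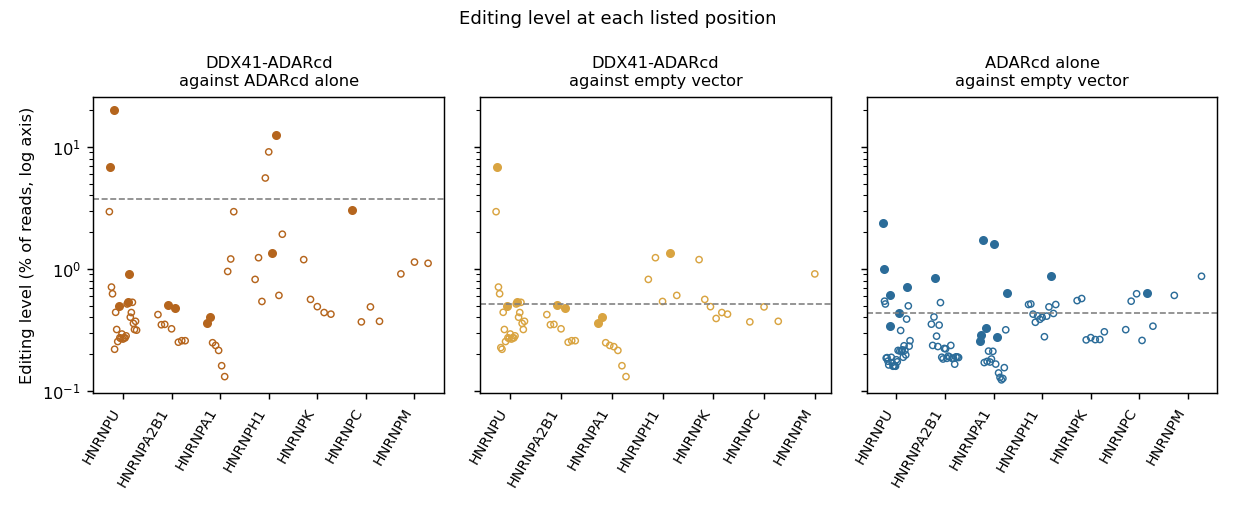
Editing level of each listed position (y axis, percent of reads with the edited base, log axis) for the HNRNP genes in the lists of DDX41-ADARcd against ADARcd alone, DDX41-ADARcd against the empty vector and ADARcd alone against the empty vector; the dashed line is the median of all positions of the list (3.70, 0.515 and 0.434%). Most HNRNP positions lie under that line, and the levels of 12.5% and 20% belong to positions with 16 and 10 reads.

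HNRNPA1, whose protein shuttles between nucleus and cytoplasm and represses splice sites, held the position with most edited reads of ADARcd alone. At 54281797 in exon 3, 12 of 700 reads were edited in ADARcd alone (1.71%, 0.889 to 2.98) and 0 of 23 in the empty vector, where 0 reads allow up to 13.0%. The change would be synonymous. It held 12 of the 44 HNRNPA1 reads edited in ADARcd alone, which were spread over 20 positions. This position was not listed for DDX41-ADARcd. With 0 of 23 in the empty vector, the listing rule would have listed it at 1 or more edited reads. By that rule DDX41-ADARcd had 0 edited reads there, at a depth that the lists do not give. The nearest position with DDX41-ADARcd reads, 54281809, lies 12 bases away, with 2 of 493 reads edited in DDX41-ADARcd (0.406%, 0.0492 to 1.46), 0 of 644 in ADARcd alone and 0 of 19 in the empty vector.

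HNRNPU held 2 positions with 3 or more edited reads. In its 3′ UTR, at 244853826, 4 of 169 reads were edited in ADARcd alone (2.37%, 0.649 to 5.95) and 0 of 27 in the empty vector. In exon 11, at 244855905, 3 of 494 reads were edited in ADARcd alone (0.607%, 0.125 to 1.76) and 0 of 44 in the empty vector, a synonymous change. Neither was listed for DDX41-ADARcd. By the listing rule DDX41-ADARcd thus had 0 edited reads at both, at depths that the lists do not give. The highest levels of ADARcd alone in the remaining genes rested on 1 or 2 reads. They were 2 of 239 at 26192055 in the 3′ UTR of HNRNPA2B1 (0.837%), 2 of 229 at 179621390 in HNRNPH1 (0.873%), 2 of 317 at 21212996 in HNRNPC (0.631%), 1 of 175 at 83969070 in HNRNPK (0.571%) and 1 of 115 at 8488870 in HNRNPM (0.870%). The empty vector had 0 edited reads at each, among 10 to 69 reads.

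Positions seen in both transduced libraries were few. Of the lists against the empty vector, which share that library, 3 HNRNP positions stood in both, 5.26% of the 57 for DDX41-ADARcd and 2.91% of the 103 for ADARcd alone; over all genes 402 did, 11.4% and 6.27% of those lists. Among the 3 were 244855022 in HNRNPU and 83973912 in HNRNPK. At 244855022, 1 of 442 reads was edited in DDX41-ADARcd, 1 of 571 in ADARcd alone and 0 of 47 in the empty vector. At 83973912, 1 of 255 reads was edited in DDX41-ADARcd, 1 of 379 in ADARcd alone and 0 of 30 in the empty vector.

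The reads with a base that was neither A nor the edited one give the level of other mismatches at the same positions. Against ADARcd alone, 0.458% of the DDX41-ADARcd reads were edited and 13 of 17234 (0.0754%) held another base. Against the empty vector, the shares were 0.377% and 0.0753% in DDX41-ADARcd, and 0.314% and 0.0701% in ADARcd alone. The edited share is raised by the listing itself, which demands at least 1 edited read, so these shares are set side by side without a test. Over all positions of the 3 lists, in the same order, the edited share was 0.760, 0.26 and 0.377% and that of other bases 0.137, 0.122 and 0.0984%.

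Most HNRNP positions lay in coding sequence. Of the 170 distinct positions 126 were coding (74.1%, 66.9 to 80.5), against 63.5% of all listed positions. The 3′ UTR held 31 (18.2%, 12.7 to 24.9), against 25.5% of all, and the 5′ UTR 10 (5.88%, 2.86 to 10.6), against 1.87% of all. These shares pool lists of unlike make-up. For DDX41-ADARcd against ADARcd alone, 67.2% of the HNRNP positions were coding (54.6 to 78.2), against 58.1% of that list. Against the empty vector it was 78.9% (66.1 to 88.6) with DDX41-ADARcd and 78.6% (69.5 to 86.1) with ADARcd alone, against 73.0% and 72.3%. Each of these intervals holds the share of its list, as do those of the 3′ UTR. For the 5′ UTR only that of ADARcd alone does, with 4 of 103 (3.88%, 1.07 to 9.65) against 1.37%. DDX41-ADARcd had 6 of 67 against ADARcd alone (8.96%, 3.36 to 18.5), beside 2.18% of that list. Against the empty vector it had 4 of 57 (7.02%, 1.95 to 17.0), beside 1.42%. These 4 are among the 6, and each of the 6 rests on 1 edited read, so the 2 lists of DDX41-ADARcd are not separate evidence. Of the 124 in the coding sequence of the transcripts used, 49 were synonymous and 75 changed the amino acid. HNRNPU had 18 synonymous and 31 changing positions, HNRNPA1 12 and 12, HNRNPA2B1 9 and 12, HNRNPH1 7 and 6, and HNRNPK 3 and 4. HNRNPC and HNRNPM had 0 synonymous positions, with 6 and 4 changing ones.

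**Figure D3:**
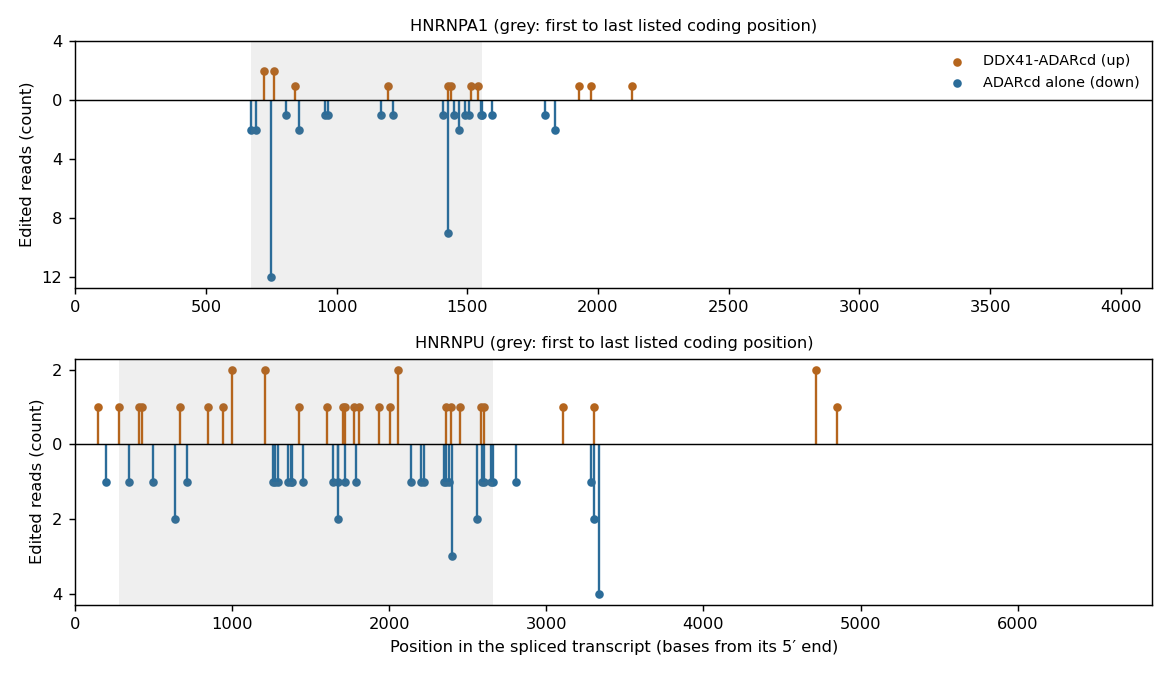
Edited reads (y axis, count) along the spliced transcripts of HNRNPA1 and HNRNPU (x axis, bases from the 5′ end), with DDX41-ADARcd above the line and ADARcd alone below it. The stretch between the first and last listed coding positions is shaded grey; the highest point is the 12 reads of ADARcd alone in HNRNPA1, and DDX41-ADARcd has at most 2 at any position.

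Along the transcripts the positions of both libraries lay over overlapping stretches. In HNRNPU they ran from base 147 to 4849 in DDX41-ADARcd and from 197 to 3332 in ADARcd alone, of 6858 bases. In HNRNPA1 they ran from base 723 to 2132 in DDX41-ADARcd and from 672 to 1835 in ADARcd alone, of 4121. Beyond these bases neither transcript had a listed position of the library named. The stretches of DDX41-ADARcd come from both of its lists, those of ADARcd alone only from the list against the empty vector. In HNRNPA1 the positions past base 1835 were listed only against ADARcd alone, where 10 reads of the empty vector are not required.

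ADAR enzymes are known to prefer U and to avoid G before the edited A. At the 28 HNRNP positions with 2 or more edited reads in a library, U came before the A in 32.1% (15.9 to 52.4) and G in 17.9% (6.06 to 36.9). These pool both libraries. The 16 of ADARcd alone had U in 25% (7.27 to 52.4) and G in 25% (7.27 to 52.4). The 12 of DDX41-ADARcd had U in 41.7% (15.2 to 72.3) and G in 8.33% (0.211 to 38.5). At the 140 with 1 edited read, U came before it in 13.6% (8.37 to 20.4) and G in 33.6% (25.8 to 42.0). Before every A of the 7 transcripts, 7008 in all, U stood in 20.3% and G in 25.6%. U was rarer and G more common at single-read positions than at the others, with overlapping intervals and no test made. In ADARcd alone over all genes, positions with 5 or more edited reads had U in 44.6% (38.4 to 50.9) and G in 4.26%. With 2 or more edited reads over all genes, ADARcd alone had U in 23.8% and G in 18.7%. DDX41-ADARcd against ADARcd alone had U in 15.3% and G in 26.7% of such positions. Of the 3 printed above with 3 or more edited reads, 1 has U before the A, 1 has A and 1 has G. After the edited A, G stood in 38.7% of the 168 positions with sequence (31.3 to 46.5), against 26.7% after every A. Over all genes the share was alike. It was 37.1% for DDX41-ADARcd against ADARcd alone and, against the empty vector, 36.1% with DDX41-ADARcd and 40.1% with ADARcd alone. Among the HNRNP positions it was 35.7% at 2 or more edited reads and 39.3% at 1.

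**Figure D4:**
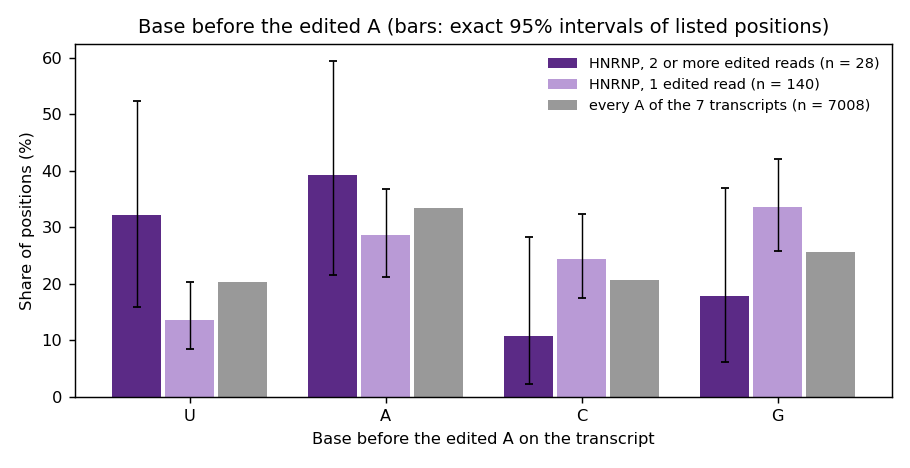
Share of positions (y axis, percent) by the base before the edited A (x axis) for HNRNP positions with 2 or more edited reads (n = 28), with 1 edited read (n = 140) and for every A of the 7 transcripts (n = 7008); bars on the listed positions are exact 95% intervals. U stands before 32.1% of the positions with 2 or more edited reads and before 13.6% of those with 1, with both libraries pooled.

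Reads at the listed positions also give the relative RNA level of each gene between libraries, in which fewer cells with a transcript and less RNA per cell cannot be told apart. Library totals are not given, so each gene is set against all genes with 5 or more listed positions. Between DDX41-ADARcd and ADARcd alone the median ratio of reads over those 527 genes was 0.659, with the 5th to 95th percentile at 0.488 to 0.876. The HNRNP genes lay inside that range, at 0.778 in HNRNPA1, 0.745 in HNRNPC, 0.739 in HNRNPM, 0.733 in HNRNPA2B1, 0.678 in HNRNPU, 0.628 in HNRNPH1 and 0.618 in HNRNPK. Their positions overlapped: those of HNRNPA1 ran from 0.586 to 0.857 and those of HNRNPU from 0.5 to 0.919. HNRNPC and HNRNPM rested on 4 and 3 positions, under the minimum of 5 set for the other genes.

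Against the empty vector the genes spread further. Between DDX41-ADARcd and the empty vector the median ratio was 6.13 over 220 genes (5th to 95th percentile 3.70 to 12.4). HNRNPA1 stood at 13.5, HNRNPA2B1 at 11.9, HNRNPK at 8.07, HNRNPH1 at 7.63, HNRNPU at 7.52, HNRNPM at 4.78 and HNRNPC at 3.89. Between ADARcd alone and the empty vector it was 8.95 over 414 genes (5.30 to 17.2), with HNRNPA1 at 17.2, HNRNPA2B1 at 13.8, HNRNPU at 12.1, HNRNPK at 9.5, HNRNPH1 at 8.48, HNRNPM at 8.38 and HNRNPC at 5.50. HNRNPA1 was highest and HNRNPC lowest of the 7 in both. Positions ran from 12.5 to 36.3 in HNRNPA1 and from 4.59 to 10.8 in HNRNPC for ADARcd alone. For DDX41-ADARcd they ran from 10.9 to 25.9 and from 3.87 to 5.60. HNRNPC rested on 6 positions for ADARcd alone and 3 for DDX41-ADARcd, and HNRNPM on 2 and 1. Counts under 5 are below the minimum set for the other genes. Positions of a gene come from the same pair of libraries and are not replicates. Both comparisons share the 1 empty vector library, and the listing requires 10 reads in it.

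**Figure D5:**
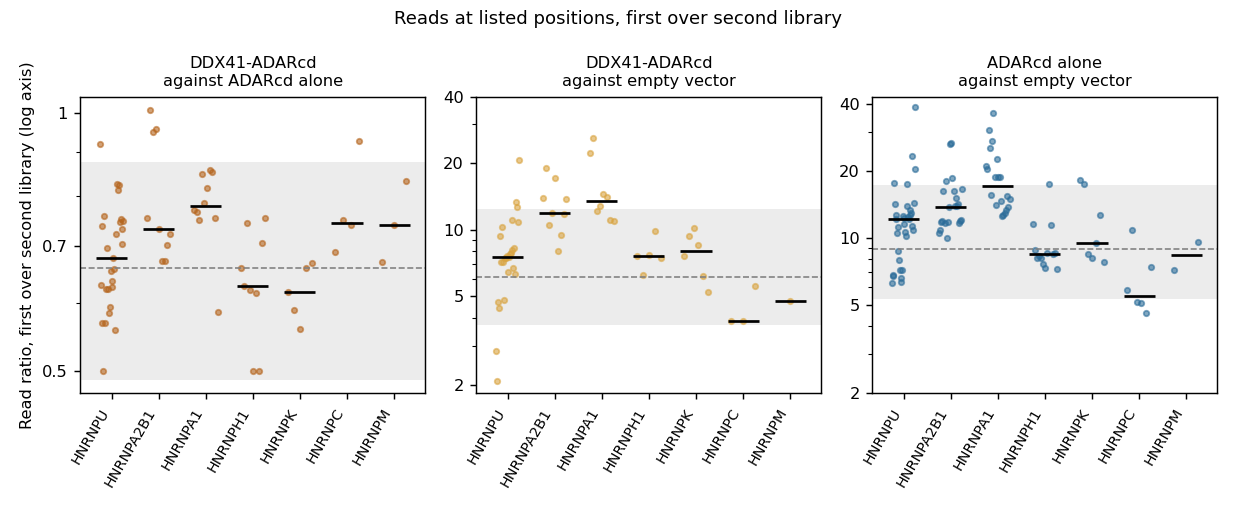
Ratio of total reads at each listed position (y axis, log axis) of the HNRNP genes for DDX41-ADARcd over ADARcd alone, DDX41-ADARcd over the empty vector and ADARcd alone over the empty vector, beside the spread over all genes with 5 or more listed positions. HNRNPA1 and HNRNPC stand at opposite ends of both ratios to the empty vector (13.5 and 3.89 for DDX41-ADARcd, 17.2 and 5.50 for ADARcd alone) and lie close together between the transduced libraries (0.778 and 0.745).

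Several HNRNP genes have processed copies in the genome, and how the authors' alignment treated reads that match several of them is not given in the sources used here. GENCODE 29 names 74 HNRNPA1 pseudogenes, 9 of HNRNPC, 5 of HNRNPK, 3 of HNRNPH1, 2 of HNRNPM, 1 of HNRNPU and 0 of HNRNPA2B1. In a window of 31 bases around the edited A, with up to 2 differences outside that base allowed, 27 of the 30 HNRNPA1 positions had a near copy in another transcript with an HNRNP name, and at 11 of them some copy has G at the edited base. The HNRNPA1 values are uncertain to that extent. At 54281797 there were 37 such copies, 29 with A and 0 with G. At 54281809, 1 of 34 copies has G. For HNRNPU 6 of 59 positions had a near copy and 0 had G in one, and both of its positions with 3 or more edited reads had none. The counts were 8 of 12 in HNRNPK, 6 of 10 in HNRNPC, 8 of 19 in HNRNPH1, 2 of 31 in HNRNPA2B1 and 0 of 5 in HNRNPM. Some copy has G at 2 of the HNRNPH1 positions and at 1 of HNRNPA2B1, where 9 of 14 copies have it. In HNRNPK, HNRNPC and HNRNPM there were 0 such positions. The values at the positions with G in a copy are uncertain in the same way. HNRNPA1 also overlaps another annotated gene on its own strand, AC078778.2.

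The other members of the family also had sparse edited reads. Of 22 further HNRNP genes and close relatives, 20 had listed positions. DDX41-ADARcd against ADARcd alone had 65 positions in 20 of them, among them HNRNPUL1 (8) and EWSR1 (6), and a median level of 1.20%. DDX41-ADARcd against the empty vector had 25 positions in 12, led by HNRNPUL1 (4) and by PCBP2, PTBP1 and RBMX (3 each), with a median level of 0.901%, and ADARcd alone against the empty vector had 69 in 15, led by HNRNPUL1 (12), PCBP2 (10) and HNRNPD (7), with a median level of 0.629%. Fisher's exact test passed at 0 of their positions in each comparison. The relatives with most edited reads at a position were PCBP2, a poly-C binding protein related to HNRNPK, with 5 of 233 reads at 53464849 of chromosome 12 in ADARcd alone (2.15%, 0.700 to 4.94) and 0 of 15 in the empty vector, and HNRNPUL1, with 4 of 211 at 41304149 of chromosome 19 in ADARcd alone (1.90%) and 0 of 13 in the empty vector. In DDX41-ADARcd no relative had more than 2.

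The genes outside the family whose numbers of positions in the 3 lists lay nearest to those of HNRNPU were SRGN, ND5, MYH9, COX1 and HSP90AB1. The measure was the distance between log2(number of positions + 1) over the 3 lists, which share libraries. SRGN, the gene of the granule proteoglycan serglycin, was nearest at a distance of 0.31, with 26 positions for DDX41-ADARcd against ADARcd alone and, with the empty vector as control, 23 positions with the fusion and 27 with ADARcd alone. In the same order of lists, HNRNPU itself had 27, 25 and 33. ND5 and COX1, genes of the mitochondrial genome, had 24, 27 and 26 positions and 22, 23 and 46. MYH9, a nonmuscle myosin heavy chain, had 21, 19 and 30, and HSP90AB1, a cytosolic chaperone, had 26, 24 and 21.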

How the data were processed

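Each of the 3 files deposited by the authors lists A-to-G positions with, per the file headers, counts of reads by base and total counts in a pair of libraries, not normalized. The submitters' processing notes name STAR 2.5, CASAVA 1.4, FastQC 0.11.7 and, as genome, the mouse build mm10, without saying what each was used for; a site caller is not given in the sources used here. Columns do not name their library; it was taken from the order of names in the title of the list. Coordinates were matched to GRCh38 (GENCODE 29): 98.9 to 99.8% of entries with an annotated name lay inside that gene in the 3 lists, and all HNRNP positions on a transcript had A.

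The members, relatives and markers were chosen with earlier results of these data known. Named positions are, per gene and list, that with most edited reads (then the highest level), those with 3 or more edited reads and those shared by both lists against the empty vector. Some positions and genes that these rules name are not reported here. Entries repeating a position (184, 62 and 134) were joined. Two-sided Fisher's exact tests (SciPy 1.17.1, pandas 2.3.3, NumPy 2.4.6, Python 3.11.15) used positions with at least 10 reads in each library, Benjamini-Hochberg adjustment over the comparison and a threshold of 0.05; DDX41-ADARcd against ADARcd alone also tested 400 positions listed for both against the empty vector. The test was tried on simulated reads at the real depths. The planted levels were above the HNRNP medians, and positions were not chosen by edited reads as in the lists. Levels have exact Clopper-Pearson 95% intervals, and a count of 0 a limit of 3 reads of the depth. Medians have intervals from order statistics. Transcripts were RefSeq-matched protein-coding ones with most positions. Figures used Matplotlib 3.10.9.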

Additional observations from a re-analysis of the deposited data

How the results depend on the processing

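Asking for 20 reads, dropping the minimum, halving the reads or using Bonferroni adjustment left 0 HNRNP positions past the test in each of the 3 comparisons. Apart from the halving, the number called over all genes stayed within 1.5 times. With reads halved in both libraries, the calls over all genes were 16 in place of 26 for DDX41-ADARcd against ADARcd alone and 6 in place of 13 for ADARcd alone against the empty vector. The number of HNRNP positions depended on the edited reads asked for. At 2 or more there were 12 for DDX41-ADARcd against ADARcd alone, 8 for DDX41-ADARcd against the empty vector and 16 for ADARcd alone against the empty vector; at 3 or more there were 0, 0 and 4. The median levels at 2 or more were 0.723, 0.503 and 0.634%, since a second read raises the level by construction. Of the 57 positions that DDX41-ADARcd had against the empty vector, 3 were shared with ADARcd alone, 14 when a distance of up to 10 bases was allowed and 0 when 2 edited reads were asked for in each. U before the edited A made up 32.1% at 2 or more edited reads, against 16.7% overall. The other 32 values, among them read ratios and shares by region, moved by less than these limits. No paired analysis was possible because each group has 1 library. The depth of the empty vector limits both comparisons made against it.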
